A study of Arabidopsis thaliana with 12 samples.

Results

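The interval described here runs along chromosome 1 of Arabidopsis thaliana from AT1G64600 to AT1G65250, and holds a block of neighbouring genes whose transcripts were lower in the mutant, with the genes on either side. Members were all rows of the deposited count table in that range of locus identifiers with a mean of at least 10 counts over the 12 libraries. They came to 61 genes of the 25424 in the table, of which 23 lay in the block from AT1G64790 to AT1G65060, 20 in the left flank and 18 in the right flank. The block was chosen by its lower counts in the mutant, and its edges follow the same values, so every genotype difference of a member is given here as a description, with no test. The nearest members above the minimum were AT1G65170 (mean of 11.4 counts) and AT1G65165 (17.9). Just below it lay CYP89A7 (7.25) and AT1G64820 (4.50), both within the block, with AT1G64830 (0.0833) as the only other row left out.

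RNA was sequenced from inflorescence meristems, the shoot tips that form flowers, of 2 genotypes at low or high air humidity, with 3 libraries in each of 4 groups. The wild type is col0. The mutant, written pip2 or pip2d in the sample labels and pip2;5 in the series' design text, is called pip2 here, and the sources used here give no allele, line number or humidity value. Its target PIP2;5 (AT3G54820), a water channel gene on chromosome 3 and so outside the interval, read 70.4, 71.7 and 70.0 CPM in low-humidity col0 and 50.8, 49.4 and 52.1 in high-humidity col0. Its mutant libraries read 1.18, 0.623 and 0.548 CPM at low and 0.726, 1.09 and 1.07 at high humidity. CPM are a gene's counts per 1000000 counts of the TMM-adjusted library total. Libraries held 17850187 to 28445060 counts, and since the labels leave unsaid if a replicate was 1 plant or many, p-values cover only the spread among libraries, which may be technical. Of 7 meristem marker genes 6 were in the table, all but CLV3, with summed levels of 211 to 261 CPM over the 12 libraries. Among them were STM (44.3 CPM on average in col0), WUS (28.9) and KNAT1 (47.1), and the lowest was LFY (3.46). All 4 tapetum markers (anther tissue) summed to 119.7 to 214 CPM and all 3 xylem wall markers to 143 to 210.5.

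Locus identifiers of Arabidopsis number the genes in their order along a chromosome, so neighbouring identifiers are neighbouring genes. Genes stand close together in this genome, on both strands, and neighbours in general have their own promoters and unrelated products. In the RefSeq annotation of TAIR10.1, 13 of the 23 block members lay on the plus strand and 10 on the minus strand. Their products range from a regulator of translation (ILA) and a chloroplast sigma factor (SIGA) to enzymes of vitamin E (VTE4) and phenylpropanoid synthesis (4CL3), a ubiquitin ligase of the endoplasmic reticulum (Hrd1B) and cytochromes P450. That annotation lists 30 genes in the block, of which 26 had a row in the count table, and the other 4 were not analysed here.

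All 23 block members were lower in pip2. At each humidity the 3 pip2 libraries lay below the 3 col0 libraries for 23 of 23 members, where 11.2% of all tested genes did so at low humidity, 6.71% at high humidity and 1.50% at both. The median level was 32.5% of the wild-type mean at low humidity and 33.5% at high humidity, with quartiles of 30.2% and 35.6% at low and 32.5% and 36.5% at high humidity. On the log2 scale of the fit the median differences, pip2 minus col0, were -1.62 and -1.58. Between 25% and 40% of the wild-type mean remained for 21 of 23 members at either humidity. In the bulk samples fewer cells that express a gene and less RNA per cell cannot be told apart.

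**Figure D1:**
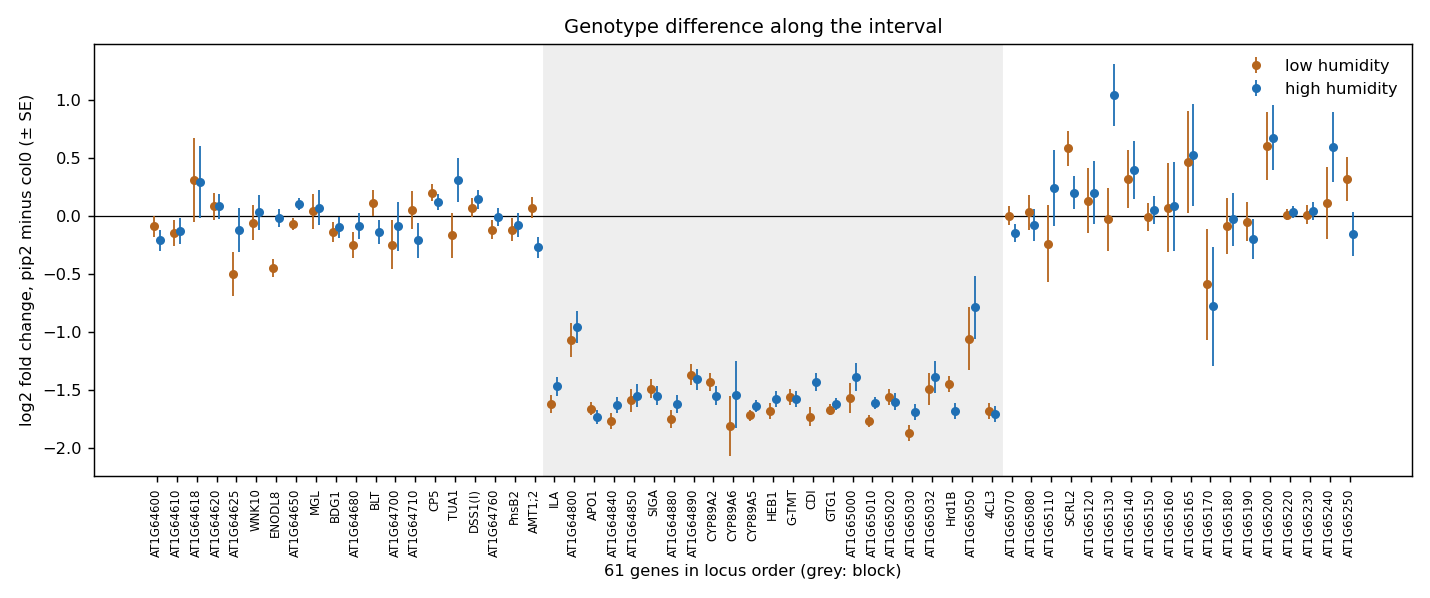
Log2 fold change of pip2 over col0 (y axis, ± SE from edgeR, 3 libraries per group) for the 61 members in locus order (x axis), at low and at high humidity, with the block shaded grey. The 23 block members lie between -1.87 and -0.79. The flanking genes lie around 0, from -0.59 to 0.6 at low and from -0.78 to 1.04 at high humidity.

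The left edge of the block falls between AMT1;2 and ILA. AMT1;2 (AT1G64780), an ammonium transporter gene and the last member outside, read 35.4, 33.0 and 37.0 CPM in low-humidity col0 and 39.9, 45.4 and 45.5 in high-humidity col0, against mutant values of 37.1, 33.7 and 39.9 CPM at low and 37.6, 32.2 and 39.3 at high humidity. Its pip2 libraries overlapped those of col0 at low humidity and all lay below them at high humidity, at 105% of the wild-type mean at low and 83.4% at high humidity. PnsB2 (AT1G64770), a subunit of the chloroplast NDH complex and the member before it, overlapped between genotypes at both humidities, with 66.2, 80.6 and 72.9 CPM in low-humidity col0 and 70.6, 75.1 and 71.1 in high-humidity col0, and mutant values of 56.3, 75.7 and 70.3 CPM at low and 65.7, 74.7 and 65.0 at high humidity. ILA (AT1G64790, ILITYHIA), the plant counterpart of the yeast translation regulator GCN1, is the first gene inside. It read 419, 398 and 379 CPM in low-humidity col0 and 353, 314 and 340.2 in high-humidity col0. Mutant libraries gave 138, 126 and 125 CPM at low and 135, 119 and 109 at high humidity. All 6 mutant libraries thus lay far below all 6 wild-type libraries, at 32.5% of the wild-type mean at low and 36.0% at high humidity. The next member, AT1G64800, annotated as DNA binding, read 7.92, 9.02 and 10.1 CPM in low-humidity col0 and 14.5, 14.9 and 14.6 in high-humidity col0. Its mutant libraries stood at 3.50, 4.78 and 4.58 CPM at low and 6.48, 7.70 and 8.40 at high humidity, which is 47.6% of the wild-type mean at low and 51.3% at high humidity, above the block's median.

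The right edge falls between 4CL3 and AT1G65070. 4CL3 (AT1G65060), a 4-coumarate:CoA ligase that feeds flavonoid synthesis, read 412, 418 and 441 CPM in low-humidity col0 and 383, 363 and 369 in high-humidity col0. In the mutant it stood at 128, 136 and 132 CPM at low and 127, 108 and 107 at high humidity. The genotypes did not overlap, and the mutant held 31.2% of the wild-type mean at low and 30.6% at high humidity. AT1G65050, a gene of a TRAF-like protein just inside 4CL3, had the lowest level of the block on average over col0 and the highest share left, with 3.03, 1.88 and 2.50 CPM in low-humidity col0 and 1.88, 1.69 and 2.28 in high-humidity col0. Its pip2 libraries read 1.23, 0.934 and 1.39 CPM at low and 1.12, 0.870 and 1.44 at high humidity, 48.0% of the wild-type mean at low and 58.7% at high humidity. With 18 to 28 counts per pip2 library at low humidity its share is among the least certain (log2 difference -1.06 ± 0.27 at low and -0.79 ± 0.27 at high humidity). Outside the block, AT1G65070, which encodes a MutS-type mismatch repair protein, read 46.1, 47.6 and 39.1 CPM in low-humidity col0 and 55.6, 54.7 and 58.1 in high-humidity col0. The mutant stood at 46.1, 40.1 and 47.1 CPM at low and 50.2, 51.9 and 50.0 at high humidity, or 100.3% of the wild-type mean at low and 90.4% at high humidity, with an overlap at low humidity only. AT1G65080, a gene of a membrane insertion protein of the OxaA/YidC type, overlapped between genotypes at both humidities, with 6.60, 6.91 and 6.60 CPM in low-humidity col0 and 9.03, 9.46 and 9.11 in high-humidity col0, and mutant values of 8.04, 6.13 and 6.32 CPM at low and 9.89, 7.01 and 9.30 at high humidity. On both sides the step from flank to block came within a single pair of neighbouring members, though the edges were set from these same values.

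**Figure D2:**
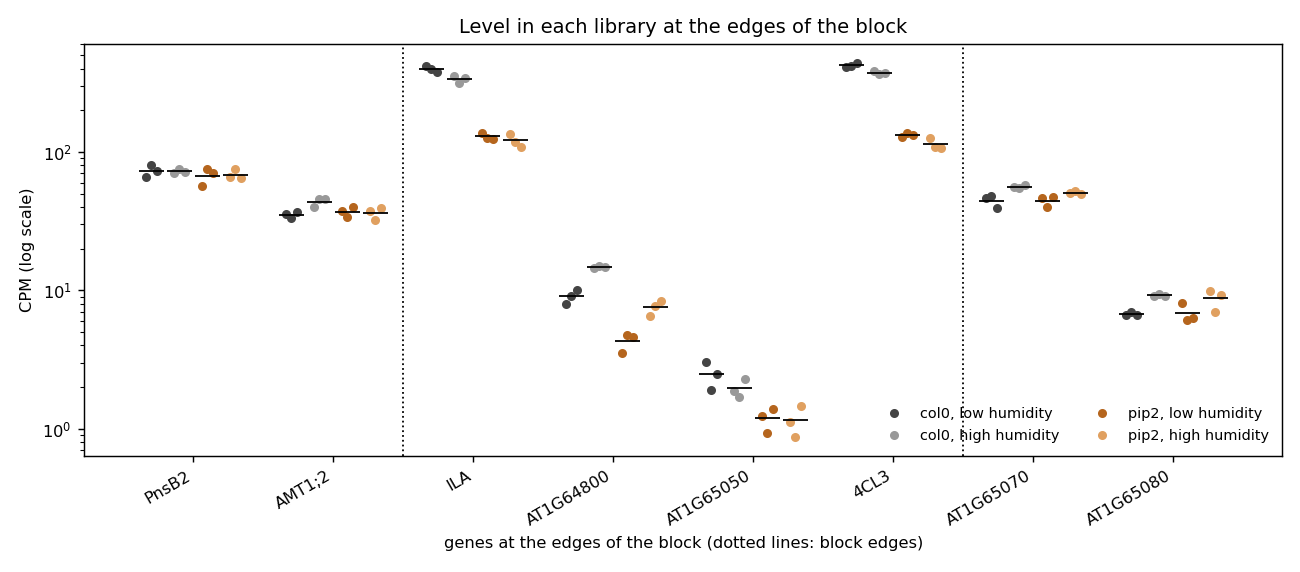
CPM in each library (points, log axis) with the group mean (bar) for the 2 members on either side of each edge of the block (dotted lines), by genotype and humidity, 3 libraries per group. PnsB2 and AT1G65080 overlap between genotypes at both humidities. AMT1;2 and AT1G65070 overlap at low humidity only, and at high humidity stand at 83.4% and 90.4% of the col0 mean. ILA, AT1G64800, AT1G65050 and 4CL3 lie lower in every pip2 library at both humidities.

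Block members with roles in the chloroplast include VTE4, SIGA and APO1. VTE4 (AT1G64970, symbol G-TMT), the methyltransferase that makes alpha-tocopherol, a form of vitamin E, read 461, 498 and 480.2 CPM in low-humidity col0 and 362, 374 and 352 in high-humidity col0. Its mutant values were 153, 178 and 156 CPM at low and 128, 122 and 114 at high humidity. This was the highest level of the block by CPM on average over col0, though 4CL3 was higher in high-humidity col0, and the mutant kept 33.8% of the wild-type mean at low and 33.5% at high humidity. SIGA (AT1G64860), a sigma factor that directs the chloroplast RNA polymerase, read 163, 178 and 169 CPM in low-humidity col0 and 209, 209.5 and 219 in high-humidity col0. Its mutant values were 52.5, 63.2 and 66.1 CPM at low and 65.7, 76.2 and 75.5 at high humidity, at 35.7% of the wild-type mean at low and 34.1% at high humidity. APO1 (AT1G64810), which is needed for photosystem I to accumulate, read 92.0, 92.9 and 97.7 CPM in low-humidity col0 and 91.7, 91.2 and 94.6 in high-humidity col0. The mutant had 28.5, 32.1 and 28.6 CPM at low and 27.6, 27.3 and 28.7 at high humidity, 31.6% of the wild-type mean at low and 30.1% at high humidity, the lowest share of the block at high humidity. For all 3 genes the mutant libraries of a humidity lay far below the wild type. Among these genes the shares of single mutant libraries spread most for SIGA at low humidity, from 30.9% to 38.9%.

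Among the members with roles in protein turnover, translation and membranes, AT1G64880, which encodes a ribosomal protein of the S5 family, read 365, 345 and 372 CPM in low-humidity col0 and 333, 293 and 311 in high-humidity col0. Its level in pip2 was 103, 113 and 105 CPM at low and 109, 89.6 and 107 at high humidity, or 29.7% of the wild-type mean at low and 32.6% at high humidity. Hrd1B (AT1G65040) encodes a RING ubiquitin ligase of protein degradation at the endoplasmic reticulum. Its levels were 219, 241 and 227 CPM in low-humidity col0 and 288, 313 and 298 in high-humidity col0. In pip2 they were 90.8, 77.1 and 82.8 CPM at low and 93.4, 98.8 and 89.0 at high humidity, 36.5% of the wild-type mean at low and 31.3% at high humidity, so the share left was lower at high humidity. GTG1 (AT1G64990), named as a GPCR-type G protein, had 130.4 ± 1.498 and 128 ± 1.92 CPM in col0 and 40.9 ± 0.711 and 41.8 ± 1.34 in pip2 (SD, n = 3), leaving 31.3% of the wild-type mean at low and 32.6% at high humidity. CDI (AT1G64980), a sugar transferase gene named for induction by cadmium, had 30.2% of the wild-type mean at low and 37.1% at high humidity, the opposite order to Hrd1B. For neither gene did the change of the genotype difference with humidity pass the test (adjusted p = 0.597 for Hrd1B and 0.547 for CDI, edgeR). AT1G64840, an F-box gene, read 67.5, 62.5 and 64.1 CPM in low-humidity col0 and 69.1, 70.5 and 71.0 in high-humidity col0. The mutant read 19.5, 18.7 and 18.6 CPM at low and 21.2, 25.3 and 21.6 at high humidity, 29.3% of the wild-type mean at low and 32.3% at high humidity. AT1G64890, of the major facilitator family of membrane transporters, had 37.1, 37.5 and 41.4 CPM in low-humidity col0 and 31.2, 26.8 and 30.1 in high-humidity col0. Its mutant libraries stood at 14.4, 15.5 and 14.98 CPM at low and 10.9, 9.79 and 12.5 at high humidity, 38.7% of the wild-type mean at low and 37.6% at high humidity, on the upper side of the block.

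Genes of the cytochrome P450 family CYP89A stand side by side in the block. CYP89A5 (AT1G64950) read 199, 215 and 205 CPM in low-humidity col0 and 164, 162 and 168 in high-humidity col0. In pip2 it gave 59.1, 63.7 and 64.4 CPM at low and 51.9, 53.0 and 53.7 at high humidity, 30.2% of the wild-type mean at low and 32.1% at high humidity. CYP89A2 (AT1G64900) held 37.2% of the wild-type mean at low and 34.1% at high humidity and CYP89A6 (AT1G64940), at only 3.53 CPM on average in col0, 28.5% of the wild-type mean at low and 34.9% at high humidity. Copies of such a tandem family can share reads, so their separate values are uncertain. HEB1 (AT1G64960), a subunit of the chromosome-compacting condensin II complex, had 70.3 ± 2.26 CPM in col0 and 22.0 ± 2.03 in pip2 at low humidity (SD, n = 3), with 31.2% of the wild-type mean at low and 33.5% at high humidity. Its annotated end overlaps VTE4 on the other strand, as AT1G65010 overlaps AT1G65020 and AT1G65030 overlaps AT1G65032. As no source used here says that counting took strand into account, reads in those overlaps cannot be told apart.

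Toward the right end, AT1G65010 of the WEB family read 421, 415 and 404 CPM in low-humidity col0 and 335, 328 and 337 in high-humidity col0. Libraries of pip2 held 120.1, 119 and 123 CPM at low and 112, 107 and 109 at high humidity, 29.2% of the wild-type mean at low and 32.8% at high humidity. AT1G65030, a WD40 repeat gene, had the lowest share at low humidity, with 94.6, 95.6 and 102 CPM in low-humidity col0 and 87.4, 83.6 and 93.6 in high-humidity col0. The mutant had 26.7, 25.9 and 27.2 CPM at low and 27.4, 25.1 and 29.6 at high humidity, 27.3% of the wild-type mean at low and 31.0% at high humidity. AT1G65032, which encodes a small LYR-like protein, read 12.1, 14.1 and 13.8 CPM in low-humidity col0 and 13.2, 12.3 and 11.5 in high-humidity col0. The pip2 libraries gave 4.39, 5.14 and 4.68 CPM at low and 4.47, 5.66 and 3.85 at high humidity, 35.5% of the wild-type mean at low and 37.8% at high humidity. The remaining members AT1G64850 (EF-hand calcium-binding protein), AT1G65000 (F-box protein) and AT1G65020 kept 33.2%, 33.6% and 33.8% at low and 34.0%, 37.9% and 32.9% at high humidity.

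The share of the block's RNA left was similar in the 6 mutant libraries. Taken over the 23 members, the median share of the wild-type mean was 31.9%, 32.4% and 31.3% in the low-humidity pip2 replicates and 33.5%, 33.7% and 32.6% at high humidity. Over the 38 flank members the same medians ran from 98.8% to 105%. Summed over the block, levels were 3696, 3800.0 and 3735 CPM in low-humidity col0 and 3465, 3389 and 3408 in high-humidity col0. Mutant sums were 1179, 1228 and 1195 CPM at low and 1158, 1139 and 1109 at high humidity. The block thus took 0.342% to 0.370% of all counts in a wild-type library and 0.112% to 0.123% in a mutant one, with no overlap. The 8 members with the highest levels, 185 to 421 CPM on average in col0, kept 29.2% to 36.5% at low humidity and 30.6% to 36.0% at high humidity. The highest shares, of AT1G64800 and AT1G65050, belonged to members with 11.8 and 2.21 CPM. Across the 23 members the log2 differences at low and high humidity, which share no library, correlated at Pearson's r of 0.82 and Spearman's rho of 0.52, a description across genes, which are not independent replicates.

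**Figure D3:**
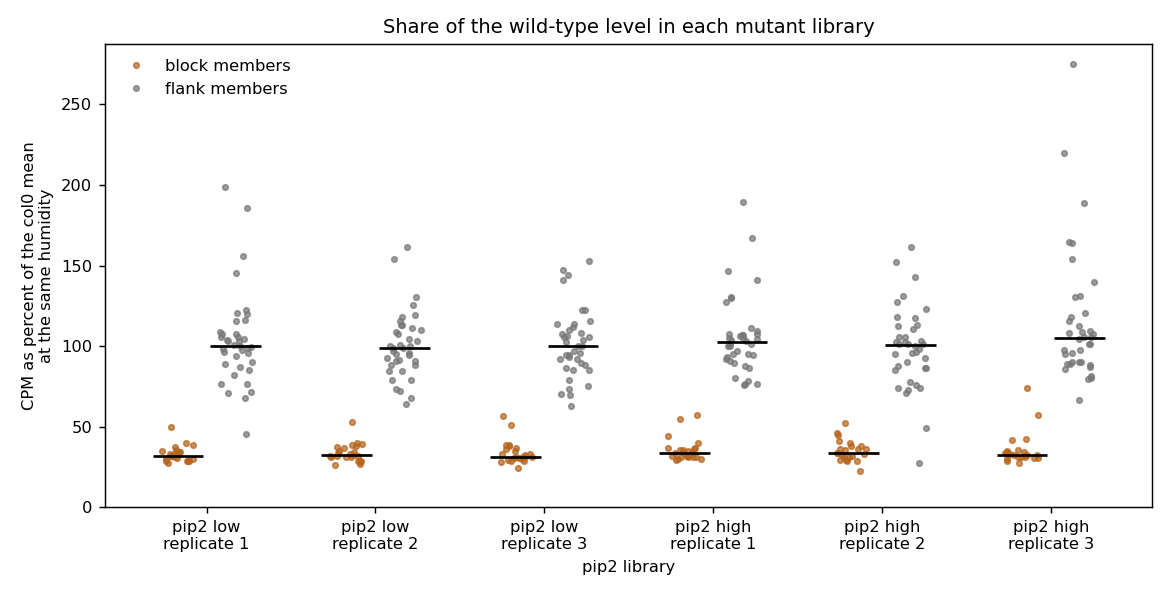
CPM of each member in each of the 6 pip2 libraries (x axis) as a percent of the col0 mean at the same humidity (y axis), with points for the 23 block members and the 38 flank members and bars at the medians. Block medians lie at 31.3% to 33.7% in every mutant library, and flank medians near the wild-type mean.

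Levels per transcript length were compared on the deposited TPM scale. In col0 the median block member stood at 87.5 TPM at low humidity and 85.4 at high humidity, at the 91.8 percentile of the 22887 genes with a TPM value at either humidity. In pip2 it stood at 26.6 and 25.7 TPM, at the 68.3 and 67.4 percentiles. The left flank kept medians of 27.6 and 29.5 TPM in col0 and 26.5 and 28 in pip2. The median of the block was therefore higher than that of the left flank in the wild type and close to it in the mutant. The right flank was lower throughout, at medians of 3.54 to 4.49 TPM. Within the block VTE4 was the highest per length in all 4 groups, at 473 ± 8.88 TPM in col0 and 162 ± 9.76 in pip2 at low humidity (SD, n = 3).

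**Figure D4:**
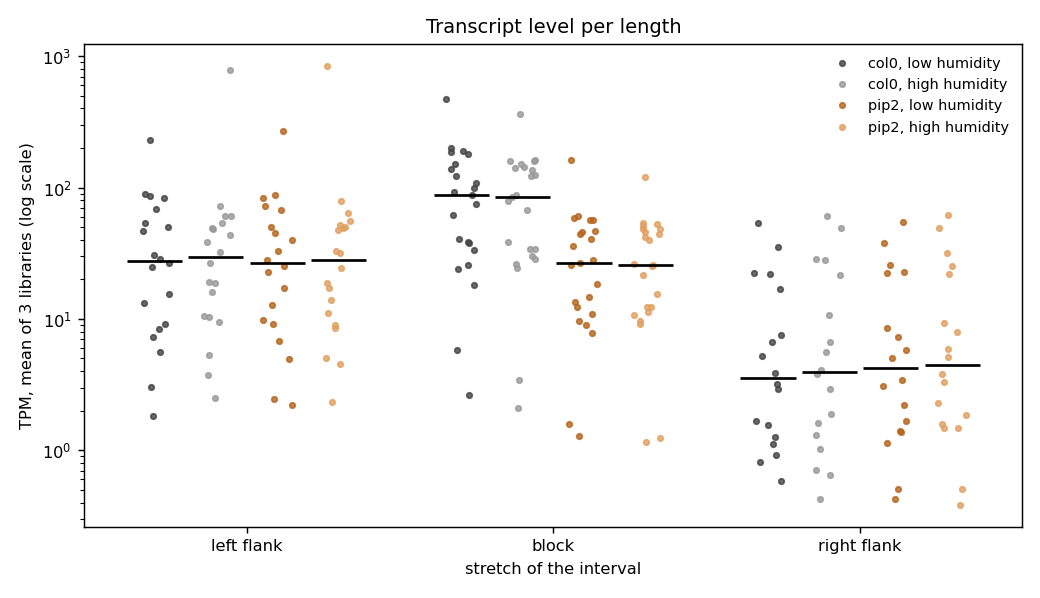
TPM of each member (points, mean of 3 libraries, log axis) in the left flank, the block and the right flank for the 4 groups, with bars at the medians. The block's median is 87.5 TPM in col0 and 26.6 in pip2 at low humidity, close to the left flank in the mutant, while the flanks differ little between genotypes.

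In the flanks no member had pip2 libraries all below or all above col0 at both humidities. At low humidity 4 of 38 lay below and 2 above (background 11.2% and 8.48% of tested genes), and at high humidity 3 lay below and 3 above (background 6.71% and 7.29%), which are shares near the background. CP5 (AT1G64720), of a lipid-binding protein family, was the most abundant flank gene, with 259, 277 and 289.8 CPM in col0 and 296, 318 and 337 in pip2 at low humidity. At high humidity it read 914, 932 and 959.7 and 937, 1106 and 1009.8 CPM. AT1G64650, a transporter gene of the major facilitator family, read 142, 129.6 and 139.6 CPM in low-humidity col0 and 99.8, 94.9 and 93.5 in high-humidity col0. Its mutant values were 129, 133 and 129 CPM at low and 107, 97.2 and 105 at high humidity, or 95.2% of the wild-type mean at low and 107% at high humidity. AT1G65220, an ARM repeat gene of the right flank, read 84.3, 83.6 and 89.0 CPM in low-humidity col0 and 96.9, 94.3 and 97.6 in high-humidity col0. The mutant libraries read 84.7, 86.0 and 87.8 CPM at low and 101, 92.0 and 102 at high humidity, or 101% of the wild-type mean at low and 102% at high humidity. Shares of the wild-type mean in the flanks ran from 66.1% (AT1G65170) to 152% (AT1G65200) at low humidity and from 57.5% (AT1G65170) to 206% (AT1G65130) at high humidity, in genes with means of 0.701, 2.15 and 2.46 CPM in col0. Besides CP5, the flank members whose genotypes did not overlap at low humidity were AT1G64625 (a kinase-like gene), ENODL8, BDG1 (a gene of cuticle formation) and AT1G64700, lower in pip2, and SCRL2, higher. At high humidity they were AT1G64600, AMT1;2 and AT1G65070, lower, and AT1G65130, AT1G65200 and AT1G65240, higher. AT1G65130 and AT1G65200 belong to a local family of ubiquitin hydrolase-related genes whose copies can share reads.

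No other run of low genes was as long as the block. When all 21846 tested nuclear genes were placed in locus order, 326 had pip2 libraries below col0 at both humidities, and these formed 298 runs of neighbours. The 23 block members were 1 of these runs, 292 runs held a single gene, 4 held 2 genes, and the next longest held 3 (AT5G02480 to AT5G02500). Of runs in the other direction, the longest held 2 genes. With group means at least 1.3-fold lower as the rule in place of libraries that do not overlap, the longest run was again of 23 genes from AT1G64790 to AT1G65060, and the next of 3. With no filter on low counts, rows with few counts inside the block split it, and the longest run held 14 genes (AT1G64940 to AT1G65060) and the next 6 (AT1G64840 to AT1G64900). The scan is a description of the table from which the block was chosen.

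The response to humidity was not used in choosing the members and could be tested. In col0, 9 of 23 block members fell in high humidity and 4 rose, where 15.8% of tested genes fell and 14.3% rose (edgeR quasi-likelihood test, adjusted p under 0.05). In pip2, 5 fell and 4 rose, against 11.7% and 12.3%. Of these members 5 fell and 3 rose in both genotypes, and none passed in opposite directions. The share of all tested genes called in both genotypes was not taken, so these counts are a description. The members that rose in both were AT1G64800 (0.70 ± 0.13 on the log2 scale in col0 and 0.81 ± 0.15 in pip2), SIGA (0.32 ± 0.08 and 0.26 ± 0.08) and CYP89A2 (0.37 ± 0.08 and 0.24 ± 0.08). Those that fell in both were VTE4 (-0.40 ± 0.07 in col0, adjusted p = 0.000517, and -0.42 ± 0.07 in pip2, adjusted p = 0.000554, by edgeR), AT1G65010 (-0.31 ± 0.05, adjusted p = 0.000242, and -0.15 ± 0.05, adjusted p = 0.0371), CYP89A5, AT1G64890 and 4CL3. ILA, AT1G64880, CYP89A6 and CDI fell, and Hrd1B rose, with a call in col0 alone, and AT1G64840 rose with a call in pip2 alone, though none of these 6 passed the test of the difference between genotypes. The median log2 response was -0.11 over the block and 0.00 over all tested genes in col0, and -0.02 and 0.01 in pip2. The shares over all tested genes were not matched for level. By TPM the median block member stood at the 91.8 percentile in col0, and smaller changes can pass at high counts. Block members had fewer counts in pip2, which limits calls there. Some of the humidity calls in the block rested on single libraries and were lost without at least 1 library. In pip2 these were the calls of SIGA, CYP89A2, AT1G65010, 4CL3 and AT1G64840. In col0 they were those of ILA, AT1G64880, CYP89A6 and 4CL3. The 9 falls in col0 became 5 without col0 high replicate 2 or col0 low replicate 1. In pip2 the 4 rises became 1 without pip2 high replicate 2 and 2 without pip2 low replicate 3, and the 5 falls became 3 without pip2 high replicate 3, pip2 low replicate 2 or pip2 low replicate 3.

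Whether the genotype difference of a member changed with humidity was tested as an interaction in the same fit. No block member passed (0 of 23, with 3 at an unadjusted p under 0.05 and 0 by DESeq2), where 0.352% of tested genes did. Of all 21897 tested genes 1650 had an unadjusted p under 0.05 by edgeR. The interaction values, the response in pip2 minus that in col0, ran from -0.22 (Hrd1B, -0.22 ± 0.09, adjusted p = 0.597 by edgeR) to 0.30 (CDI, 0.30 ± 0.12, adjusted p = 0.547) on the log2 scale. Such p-values do not show that the difference was the same at both humidities. The value of GTG1 was 0.06 ± 0.06, and that of the rare AT1G65050 was far less certain at 0.27 ± 0.38. Across the 23 members the responses in the 2 genotypes, which share no library, correlated at r = 0.92 and rho = 0.92 over genes, as a description.

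**Figure D5:**
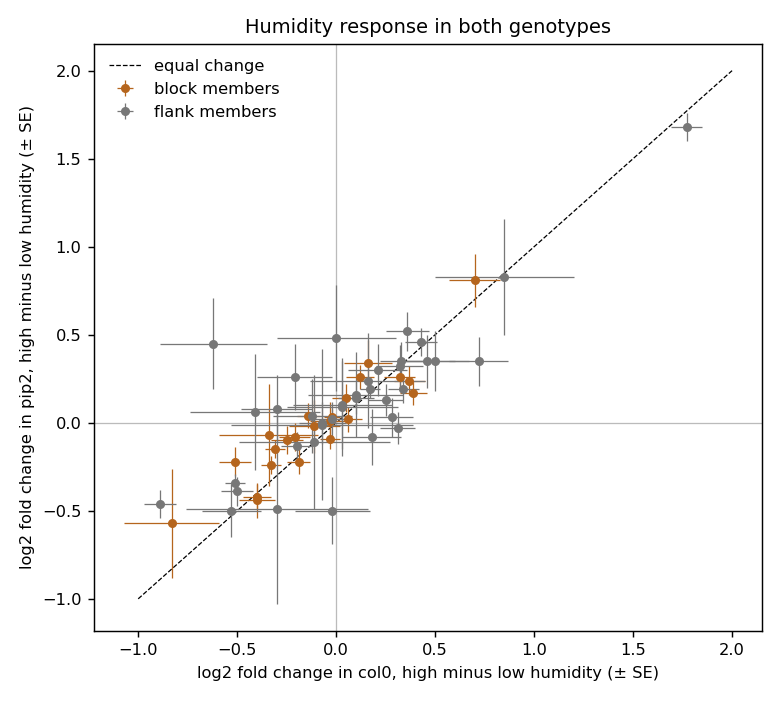
Log2 fold change of high over low humidity in pip2 (y axis) against col0 (x axis), ± SE from edgeR with 3 libraries per group, for the 23 block and 38 flank members, with a dashed line of equal change. Block members lie along the line, with AT1G64800 at the upper end and CYP89A6 at the lower end, and CP5 is the flank gene at the upper right.

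Among the flank members, CP5 had the clearest response to humidity. In col0 11 of 38 rose and 4 fell, and in pip2 5 rose and 4 fell, of which 5 rose and 4 fell in both. For calls in both genotypes no share of all tested genes was taken. Over all tested genes 14.3% rose and 15.8% fell in col0, and 12.3% rose and 11.7% fell in pip2, so the flank counts in pip2 were near the background. CP5 rose by 1.77 ± 0.08 in col0 (adjusted p = 2e-08, edgeR) and 1.68 ± 0.08 in pip2 (adjusted p = 1.24e-08). ENODL8 (AT1G64640), an early nodulin-like gene, read 55.1, 57.0 and 49.5 CPM in col0 and 38.4, 42.7 and 37.4 in pip2 at low humidity. At high humidity it read 29.0, 29.7 and 28.8 in col0 and 30.6, 29.5 and 26.3 in pip2, so the genotypes were apart at low humidity and overlapped at high humidity. It fell with humidity in col0 (-0.89 ± 0.08, adjusted p = 2.98e-06) and in pip2 (-0.46 ± 0.08, adjusted p = 0.000766), and the interaction did not pass in edgeR (0.43 ± 0.11, adjusted p = 0.168). With the replicate number as a block it passed (0.43 ± 0.09, adjusted p = 0.0418), and its adjusted p ran from 0.0418 to 0.38 over the alternatives. AT1G64650 fell in both (-0.51 ± 0.05, adjusted p = 1.7e-05, and -0.34 ± 0.05, adjusted p = 0.000518), as did MGL (AT1G64660), the methionine gamma-lyase gene, and AT1G64760, of a glycosyl hydrolase. AT1G64610, AT1G64680, AT1G65220 and AT1G65230 were the others that rose in both genotypes. The calls of MGL, AT1G64610 and AT1G65220 in both genotypes, and that of AT1G64680 in col0, were lost under at least 1 alternative. No flank member passed the interaction (0 of 38, with 4 at an unadjusted p under 0.05 and 0 by DESeq2), where 0.352% of tested genes did. Of all 21897 tested genes 1650 had an unadjusted p under 0.05 by edgeR. Without col0 high replicates 1, 2 or 3 the 11 rises in col0 became 7, 5 and 6, and without col0 low replicates 1 or 3 they became 5 and 7. In pip2 the 5 rises became 3 without pip2 high replicate 3.

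Genes outside the interval that share a family, complex or pathway with its members were not used in choosing it, and their genotype difference could be tested. Among them ABCF3 (AT1G64550) has a locus identifier just before the left end of the interval. Of 44 such genes tested in 11 lists, 2 fell and 0 rose in pip2 at low humidity, where 2.79% of all tested genes passed in either direction. At an unadjusted p under 0.05 by edgeR stood 6 of 44, beside 3041 of all 21897 tested genes. At high humidity 0 of 44 passed by edgeR (1 at an unadjusted p under 0.05, and 0 by DESeq2), against 0.466% of tested genes. There 1956 of all 21897 tested genes had an unadjusted p under 0.05. The median log2 difference of the 44 genes was -0.02 at low and -0.02 at high humidity, beside medians over all tested genes of 0.00 and 0.01. The 2 genes that fell were the alpha-tubulin genes TUA5 (-0.44 ± 0.05, adjusted p = 0.000346, edgeR) and TUA3 (-0.33 ± 0.05, adjusted p = 0.00197), close copies of each other that can share reads. At high humidity TUA5 stood at 99.8% and TUA3 at 103% of the wild-type mean. Both passed the interaction, read after these values were seen (TUA5 0.44 ± 0.08, adjusted p = 0.027, and TUA3 0.37 ± 0.07, adjusted p = 0.0477, edgeR). Of all tested genes 0.352% did. TUA1 of the left flank had -0.17 ± 0.19 at low humidity, as a description.

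None of the other partner genes passed at either humidity. Among genes that work with ILA in translation control, AT2G40290, an eIF2-alpha gene, had -0.13 ± 0.06 at low humidity (adjusted p = 0.348, edgeR). For the other sigma factors SIGC gave 0.11 ± 0.07 and -0.12 ± 0.07 at low and high humidity, and for the APO family APO2 gave 0.09 ± 0.06 and -0.09 ± 0.06. VTE1 (AT4G32770), the tocopherol cyclase, had -0.12 ± 0.07 and -0.14 ± 0.07, in a list where 0 of 7 passed. Other P450 genes of the CYP89A family, away from the block, gave 0.44 ± 0.23 (AT2G12190, low humidity) and 0.48 ± 0.18 (CYP89A3, high humidity). 4CL1, a ligase of the same kind as 4CL3, had -0.21 ± 0.09 at low humidity and 4CL5 0.05 ± 0.12 at high humidity. Condensin genes were represented by ATSMC2 (0.12 ± 0.11, low) and HEB2 (-0.15 ± 0.10, high), and the partners of GTG1 and Hrd1B by EBS5 (0.10 ± 0.05 and 0.09 ± 0.05). For the flank genes, AMT2 gave 0.04 ± 0.10 and 0.07 ± 0.10 in an ammonium transporter list with 2 of 5 genes in the table, PnsB3 -0.19 ± 0.09 at low humidity, PnsB5 -0.09 ± 0.09 and TUA6 0.08 ± 0.07 at high humidity. Each of these missed the threshold, which does not show that they were unchanged.

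Marker levels were read beside the genotype difference. Meristem markers summed to 211 to 232 CPM in col0 and 217 to 261 in pip2 under low, and 237 to 253 and 236 to 251 at high humidity. Tapetum markers summed to 132 to 214 and 174 to 180.5 CPM at low and 119.7 to 159.7 and 138 to 211 at high humidity. Xylem wall markers summed to 143 to 163 and 153 to 166 at low and 188 to 210.5 and 148 to 189.9 at high humidity. These sums overlapped between genotypes at each humidity, no marker in the table was at 0 in all libraries of a group, and 0 of 6, 0 of 4 and 0 of 3 tested markers passed in either genotype comparison, led by KNAT1 (0.26 ± 0.09), DYT1 (0.64 ± 0.45) and CESA4 (0.07 ± 0.10) at low and WUS (-0.27 ± 0.16), AMS (0.41 ± 0.17) and IRX1 (-0.31 ± 0.09) at high humidity. Single markers did stand apart at a given humidity: KNAT1 at 119% and CLV1 at 110.3% of col0 had all pip2 libraries above col0 at low humidity, and IRX1 at 80.3%, IRX3 at 85.9% and KNAT1 at 94.7% had all below it at high humidity. Of all tested genes 8.48% lay above in this way at low humidity and 6.71% lay below at high humidity. CESA4 stood at 82.2% of col0 at high humidity (-0.28 ± 0.10), with libraries that overlapped, and the xylem wall sums overlapped only narrowly there. The median log2 differences at high humidity were -0.28 for the xylem wall, 0.38 for the tapetum and 0.02 for the meristem markers. The part of these markers in the block's difference was not tested.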

How the data were processed

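Total RNA of inflorescence meristems was sequenced as short-read libraries, per the labels' protocols. The submitters' processing notes name Trimmomatic 0.39, HISAT2 2.2.1, featureCounts 2.0.6 and the build TAIR10. The authors' deposited counts are whole reads assigned to each gene in each library. The TPM values, scaled for length and depth, are the authors' as well, per the file headers, and 2537 genes have none. Every gene of the count table has at least 1 count in col0 low replicate 1, so genes silent there were not analysed here.

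Genes passing filterByExpr of edgeR 4.0.16 (minimum count 10, minimum total 15) were tested, 21897 in all and 61 of 61 members, in R 4.3.3. Libraries were scaled by TMM (factors 0.972 to 1.04). A quasi-likelihood fit to all 12 libraries with 1 mean per group gave the humidity responses, the genotype differences and the interaction, two-sided, with Benjamini-Hochberg adjustment over all tested genes and a threshold of 0.05. SE was taken as the size of the log2 change divided by the root of its F statistic. DESeq2 1.42.0, its size factors, no filter, a replicate block and each library left out were alternatives. Replicates of a group differed by 4.92 to 11.8 times the counting noise (chi-square per degree of freedom), a spread that may be technical, and each was counted as 1 sample.

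Same-numbered replicates deviated together between the humidities of col0 (r = 0.263, 0.228, 0.424 for replicates 1 to 3) and between genotypes at low humidity (0.218, 0.197, 0.258). They did not in every pair between the humidities of pip2 (-0.008, 0.254, 0.071) or between genotypes at high humidity (0.005, 0.268, 0.249).

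Names, strands and neighbours come from the RefSeq annotation of TAIR10.1, which matched 61 of 61 members and gave 23 a symbol. Coordinates are not printed because the build differs in name. Genes with values in every library were the 2 members at each edge inside and outside the block, the 8 most abundant block members, the 4 at the top and the 4 at the bottom by share left, and the 3 most abundant flank members. Others are given by mean, share or range. Members past a threshold are named by the 4 smallest p-values, and partner lists by the smallest p. GTG1, HEB1, CDI and the remaining block members were added after their values were seen, so that each block member is described. Members and lists were chosen with earlier results of these data known.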

Additional observations from a re-analysis of the deposited data

How the results depend on the processing

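With each library left out in turn, the block's median log2 difference stayed at -1.67 to -1.61 at low humidity, the far end without col0 low replicate 1, and at -1.60 to -1.56 at high humidity. The flank medians of the log2 difference moved around 0, from -0.02 to 0.02 at low and -0.01 to 0.03 at high humidity. For the share left in the block only the 6 pip2 libraries were left out in turn, with the wild-type means kept. Its median over libraries stayed at 32.4 to 32.6%. Counts of humidity calls depended more on single libraries: 5 to 9 falls and 4 rises in the block and 5 to 12 rises and 3 to 5 falls in the flanks in col0, and in pip2 3 to 6 falls and 1 to 5 rises in the block and 3 to 6 rises and 3 to 4 falls in the flanks. Of the humidity calls in the block, 4 of 13 in col0 and 5 of 9 in pip2 were lost under at least 1 alternative, and of those in the flanks 8 of 15 and 3 of 9. With a replicate block the interaction passed for 1 flank member, ENODL8, where none passed without it. That block changed no other count by over 1.5 times, and same-numbered replicates did not deviate together in every pair. With no filter on low counts the longest run of low genes held 14 genes and the next 6, because the 3 rows of the block with few counts interrupt it. DESeq2, its size factors in edgeR and the deposited TPM kept each of the other counts within 1.5 times and each median within the spread between replicates. The 4 members with the smallest p-values for humidity in each genotype, and the gene with the smallest p in each partner or marker list, kept their side of the threshold in that contrast. With 3 libraries per group, depth limits the rare members most: AT1G65170, AT1G65165 and AT1G65050 rest on few counts per library.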

Other observations

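CYP89A7 (AT1G64930), the other cytochrome P450 gene of the CYP89A row in the block, had too few counts to be a member. Its replicates 1 to 3 held 6, 3, 19 counts in low-humidity col0, 9, 9, 8 in low-humidity pip2, 7, 5, 11 in high-humidity col0 and 3, 4, 3 in high-humidity pip2. AT1G64820, a gene of a MATE efflux transporter, had 4, 5, 14 counts in low-humidity col0, 3, 0, 8 in low-humidity pip2, 4, 5, 7 in high-humidity col0 and 1, 3, 0 in high-humidity pip2. AT1G64830, an aspartyl protease gene, had 1 count in col0 low replicate 1 and 0 in each other library.

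SCRL2 (AT1G65113), a gene of an SCR-like peptide in the right flank, was chosen here after its values were seen. It read 4.98, 5.77 and 5.85 CPM in col0 and 8.04, 8.51 and 8.16 in pip2 at low humidity, where the genotypes did not overlap, and 10.5, 9.69 and 7.35 and 11.9, 9.71 and 9.89 at high humidity. In col0 it rose with humidity (0.72 ± 0.15 on the log2 scale, adjusted p = 0.00223 by edgeR), while pip2 gave 0.35 ± 0.14 (adjusted p = 0.0921) and the interaction -0.38 ± 0.20 (adjusted p = 0.705).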
